A study of Mus musculus with 8 samples.

Results

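The genes described here were 10 components of Wnt signalling, the R-spondin receptors LGR4, LGR5 and LGR6, the ubiquitin ligases RNF43 and ZNRF3, the feedback inhibitors AXIN2, NKD1 and NOTUM, and the transcription factors TCF7 and LEF1. They were taken by symbol from a table of normalized counts that listed 16119 genes, and all 10 were found. RNA of mouse thyroid follicular cell organoids (TFCOs) was sequenced beside 2 thyroid tissues and 2 lung tissues, all wild type and of strain C57BL/6, with lung as an unrelated tissue. TFCO lines mThy14 and mThy16, each grown from the thyroid of a single mouse, were sequenced at early and at late passage, which gave 8 libraries in 4 groups of 2. TFCO medium held 1% R-spondin 3 conditioned medium, the TGF-beta receptor inhibitor A83-01 at 0.5 µM, the cAMP activator forskolin (FSK) at 1 µM, EGF at 500 ng/mL and FGF10 at 100 ng/mL, and no Wnt ligand is named for the mouse medium. Each line came from 1 mouse and its libraries are its passages, so p-values between lines do not measure the spread between mice. The spread in that fit came from all 8 libraries, the 2 thyroid and 2 lung tissues included.

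Wnt ligands bind Frizzled and LRP receptors at the cell surface, which keeps beta-catenin from being degraded and lets it act with TCF and LEF factors on target genes. RNF43 and ZNRF3 remove Frizzled receptors from the membrane, and R-spondins, bound to LGR receptors, remove RNF43 and ZNRF3 in turn and so strengthen the response. AXIN2, NKD1, NOTUM, RNF43 and ZNRF3 are themselves common Wnt targets that dampen the pathway, and LGR5 is both a target and a marker of stem cells in the intestine and other epithelia.

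Between 9755081 and 16904865 reads per library fell on genes. The labelled tissues showed their markers. Pax8, a defining thyroid transcription factor, had 3925 to 8273 normalized counts in TFCOs and was listed at 0 in lung. Together 7 thyroid follicular genes gave 22118 to 175048 in TFCOs, 1556230 and 2222540 in thyroid tissue and at most 3255 in lung. Most of the thyroid tissue sum was Tg, at 1526000 and 2175020 there and at 9532 to 126441 in TFCOs. Sftpc, the surfactant gene of alveolar cells, had 241128 and 180943 in lung and at most 266 in TFCOs, although 5 lung epithelial genes together still gave 5056 to 41903 in TFCOs. Nearly all of that sum came from Ager (2958 to 19366) and Sftpb (1475 to 28176.5). In thyroid tissue the same genes summed to 20309 and 15079, with Ager at 20265 and 15011 and Sftpb at 25.0 and 28.6. Libraries were split into 2 sets that the labels do not name, and other splits were not counted. The TFCOs and thyroid tissue 1 formed one set, in which 44 genes stood at 50 or more while thyroid tissue 2 and the lung libraries listed them at 0, and for 16 genes it was the other way round. Under this split, TFCOs can be compared within a set only with thyroid tissue 1, and set and tissue cannot be told apart between TFCOs and lung. Fibroblast genes summed to 91.6 to 247 normalized counts in TFCOs against 29602 and 25237 in the thyroid tissues, and endothelial genes to 180 to 522 against 2573 and 8073. Summed genes of C cells and parathyroid gave at most 9.37 in TFCOs and at least 28394 in thyroid tissue, skeletal muscle genes at most 2469 against at least 33169, mural cell genes at most 2348 against at least 4777, leukocyte genes other than T cell genes at most 122 against at least 803, and adipocyte genes at most 35.1 against at least 1054. The mural cell genes were not alike, since Myh11 had 1069 to 1668 in TFCOs against 1206 and 668 in thyroid tissue. Acta2 had 272 to 610 in TFCOs against 2319 and 525. The part of these other cells in the differences between TFCOs and tissue was not tested, and in bulk RNA fewer cells of a type and less RNA per cell cannot be told apart.

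Per kilobase of exon, the mean levels of the 10 genes in the 4 TFCO libraries spread widely. Notum and Lgr4 came first on this scale, at 333 and 315 normalized counts per kilobase. They were followed by Tcf7 at 86.0, Axin2 at 76.9, Nkd1 at 67.0 and Znrf3 at 41.4. Lgr5, Rnf43, Lgr6 and Lef1 had 11.3, 6.79, 3.98 and 1.93 per kilobase. In thyroid tissue Lgr4 and Nkd1 led the order at 361 and 323 per kilobase, and Lgr5 was last at 0.106. In lung Nkd1 was highest at 481 and Tcf7 followed at 157. Neighbours in the TFCO order overlapped in their ranges over libraries, except Lgr4 with Tcf7 and Znrf3 with Lgr5. Without division by length the TFCO mean was 1854 for Lgr4 and 803 for Notum, so their order depends on that division. The methods and the labels name different protocols, and whether reads scale with exon length here was not tested. The values below are normalized counts, not divided by length.

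**Figure D1:**
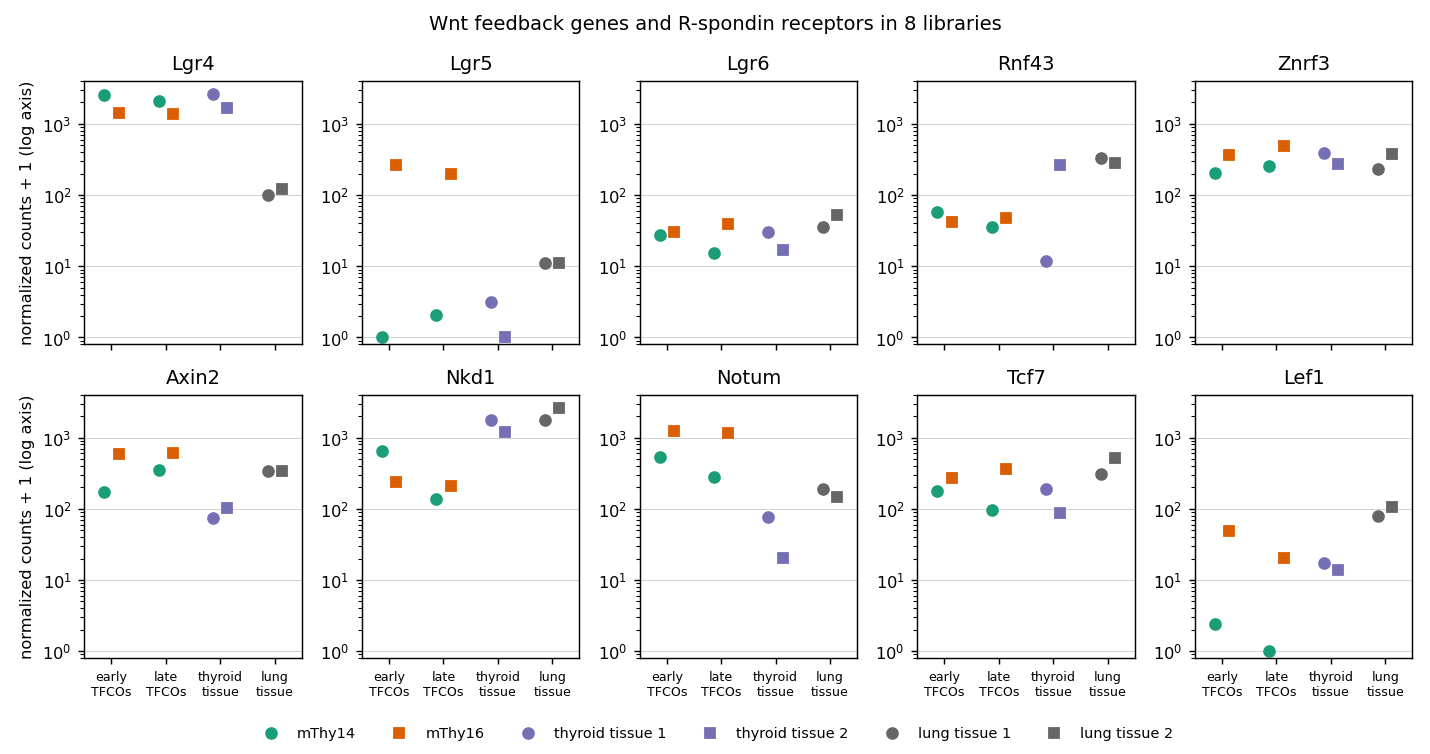
Normalized counts plus 1 on a log axis for each of the 10 genes in 8 libraries, with 1 point per library, grouped as early TFCOs, late TFCOs, thyroid tissue and lung tissue. Lgr5 stands at 263 and 199 in mThy16 and at 0 and 1.04 in mThy14, and Lgr4 is low in both lung tissues.

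The receptors behaved very differently from one another. Lgr4 (chr2:109917647-110014257, plus strand, GRCm38), the broadly expressed R-spondin receptor, reached 2562 (early) and 2073 (late) normalized counts in mThy14 and 1400 and 1381 in mThy16. Thyroid tissue 1 had 2599, thyroid tissue 2 had 1654, and the lung libraries had 98.0 and 123. Every TFCO and thyroid library stood above both lung libraries. The log2 difference, on log2(normalized counts + 1) throughout, was 4.02 between TFCOs and lung (SE 0.42, limma adjusted p = 0.00209) and 4.23 between thyroid and lung (SE 0.42, adjusted p = 0.00452). Within one library set, which holds 1 thyroid library, thyroid tissue 2 stood 3.90 above lung on the same scale. TFCOs and thyroid differed by -0.21 (SE 0.42), within the spread. The call between thyroid and lung was lost without lung tissue 1 (adjusted p = 0.0630) or lung tissue 2 (0.0505).

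Lgr5 (chr10:115450311-115587780, minus strand) followed the line. In mThy16 it had 263 normalized counts (266 reads) at early passage and 199 (178 reads) at late passage. In mThy14 it had 0 reads and 1 read, thyroid tissues 1 and 2 had 2 reads and 0 reads, and the lung libraries had 12 and 15 reads, or 10.1 normalized counts each. Both mThy16 libraries thus stood above all other libraries, and mThy14 was at or near 0 at both passages. Against a floor of 3 reads in early mThy14, mThy16 was at least 62.5-fold higher. At late passage the ratio was 191, with an exact 95% interval of 33.9 to 7593 that covers counting error only. The fitted line difference, mThy14 minus mThy16 with the passages as 2 libraries per line, was -7.33 (SE 1.08, limma adjusted p = 0.0211), and its size depends on the pseudocount. The call was lost with voom (adjusted p = 0.0629), without either lung tissue (0.101 in each case) and without any one TFCO library, where it ranged from 0.346 to 0.406. Averaged over lines, TFCOs and thyroid tissue did not differ beyond the spread in the fit (3.35, SE 2.20, adjusted p = 0.420).

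Lgr6 (chr1:134983301-135105276, minus strand), the third receptor of the family, was low in every library. Early and late mThy14 had 26.7 and 14.6 normalized counts, mThy16 had 29.7 and 38.0, thyroid tissue had 29.4 and 15.7, and lung had 35.2 and 51.2. TFCOs overlapped with both tissues, thyroid lay below lung and mThy14 below mThy16, and no comparison passed the threshold.

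The ubiquitin ligases differed from each other. Znrf3 (chr11:5276324-5444847, minus strand) stood at 205 (early) and 259 (late) normalized counts in mThy14, at 359 and 483 in mThy16, at 392 and 275 in thyroid tissue and at 229 and 375 in lung. The tissues fell inside the TFCO range, and Znrf3 passed the threshold in no comparison. Rnf43 (chr11:87662722-87735539, plus strand) stood at 56.2 (early) and 34.3 (late) normalized counts in mThy14 and at 40.6 and 47.0 in mThy16. It had 10.9 in thyroid tissue 1, 265 in thyroid tissue 2 and 330 and 277 in lung. It was the only one of the 10 genes whose levels did not overlap between the library sets, which held for 43.6% of the 14703 genes tested. TFCOs stood 1.91 above thyroid tissue 1 and were lower than thyroid tissue 2 by a log2 difference of -2.57, and so the direction turned with the tissue chosen. Pooled over both tissues, the difference was -0.33 (SE 1.33). Without thyroid tissue 1 it was past the threshold (limma adjusted p = 0.0202).

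Of the feedback inhibitors, Notum (chr11:120653788-120661175, minus strand), a secreted enzyme that removes the lipid from Wnt ligands, was the one with the largest rise from thyroid to TFCOs. Its normalized counts were 540 (early) and 282 (late) in mThy14, 1240 and 1149 in mThy16, 75.1 and 19.4 in thyroid tissue and 190 and 145 in lung. All 4 TFCO libraries were above all tissue libraries. TFCOs minus thyroid was 4.12 (SE 0.82, limma adjusted p = 0.0450), with 3.17 against thyroid tissue 1 and 5.07 against thyroid tissue 2. Antisense transcripts cover 38.1% of its exon length, and the strand setting of the counting is not given in the sources used here. Nkd1 (chr8:88521354-88594884, plus strand), which binds Dishevelled proteins, changed in the opposite direction. Its normalized counts were 642 (early) and 137 (late) in mThy14, 237 and 206 in mThy16, 1759 and 1187 in thyroid tissue and 1769 and 2613 in lung. All TFCO libraries were below all tissues. TFCOs minus thyroid was -2.49 (SE 0.39, adjusted p = 0.0201) and TFCOs minus lung -3.06 (SE 0.39, adjusted p = 0.00432).

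These calls depended on the fit. Against thyroid tissue, both were lost with voom (limma adjusted p 0.0501 for Nkd1 and 0.108 for Notum), without thyroid tissue 2 (0.0559 and 0.125), without lung tissue 1 (0.0647 and 0.124) and without lung tissue 2 (0.0669 and 0.122). Without late mThy14 Nkd1 was lost (0.129), and without early mThy14 Notum was lost (0.0719). Within the set of thyroid tissue 1 the differences were -2.77 and 3.17 and passed no threshold (0.334 and 0.387), as was the case in limma for every gene tested there, with 1618 at an unadjusted p under 0.05. Nkd1 between TFCOs and lung was lost without lung tissue 2 (0.0673).

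**Figure D2:**
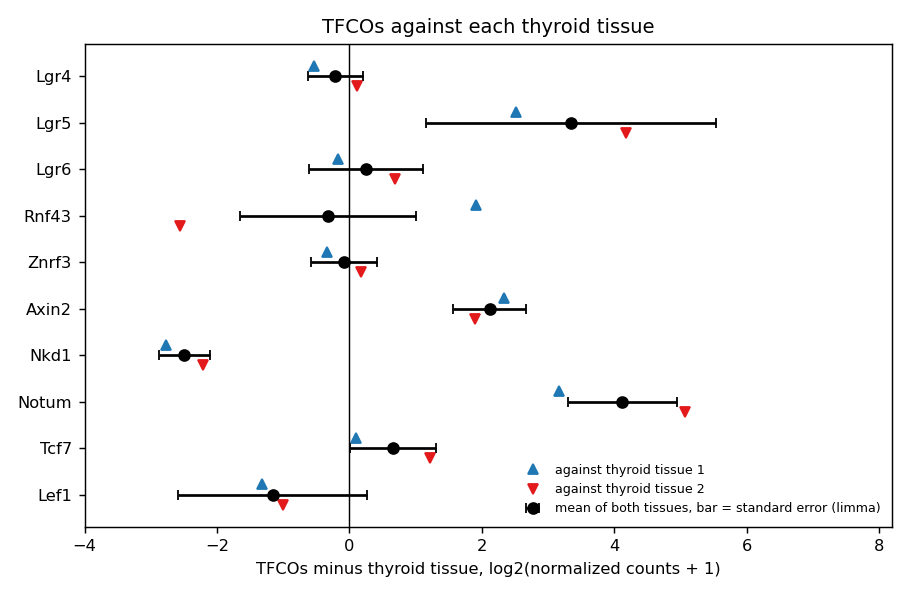
Differences of TFCOs from thyroid tissue on log2(normalized counts + 1) for the 10 genes: black points are the fitted mean difference with its standard error, and triangles are the differences from thyroid tissue 1 and thyroid tissue 2 alone. Nkd1, Axin2 and Notum keep their sign against each tissue, and Rnf43 changes sign.

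Axin2 (chr11:108920349-108950783, plus strand), the scaffold of the beta-catenin destruction complex that is read most often as a measure of Wnt activity, reached 173 (early) and 343 (late) normalized counts in mThy14 and 577 and 599 in mThy16. Thyroid tissue had 74.0 and 101, and lung had 339 and 337. Every TFCO library was above both thyroid tissues, and lung lay at the upper end of the mThy14 range and below both mThy16 libraries. TFCOs minus thyroid was 2.12 (SE 0.55, limma adjusted p = 0.0981) and thyroid minus lung -1.95 (SE 0.55, adjusted p = 0.0890), and neither passed the threshold. TFCOs and lung differed by 0.16 (SE 0.55). With the 4 TFCO libraries taken as separate samples the first passed (adjusted p = 0.0364), but the passages of a line are not independent samples.

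The transcription factors that carry beta-catenin onto DNA were both lower in mThy14 than in mThy16. Tcf7 (chr11:52252371-52283014, minus strand) stood at 177 (early) and 95.8 (late) normalized counts in mThy14, at 273 and 357 in mThy16, at 188 and 86.7 in thyroid tissue and at 303 and 521 in lung. Lef1 (chr3:131110471-131224356, plus strand) had 1 read and 0 reads in mThy14 and 48 and 17 reads in mThy16, or 47.5 and 19.0 normalized counts. Thyroid tissue had 16.3 and 12.9 normalized counts and lung 77.9 and 104. The lines did not overlap for either gene, and lung was the highest group for Lef1. Both genes are also used by T cells, whose 7 markers summed to 821 and 477 in lung, 98.0 and 73.8 in thyroid tissue and 68.2 to 87.1 in TFCOs, and the part of T cells was not tested. Antisense transcripts cover 13.8% of the Lef1 exon length and 3.80% of that of Axin2. For Lef1 the early ratio of mThy16 to mThy14 was 33.8 (exact 95% interval 5.79 to 1363, counting error only), and at late passage mThy16 was at least 6.09-fold higher than the floor of 3 reads. The fitted line difference of Lef1 was -4.33 (SE 0.91, limma adjusted p = 0.0681) and that of Tcf7 was -1.26 (SE 0.58, adjusted p = 0.398). Lef1 passed the threshold with quantile normalization (0.0493) and with no mean-variance trend (0.0389). With 1 library left out it passed only when that was a thyroid tissue, and its difference ranged from -4.335 to -4.322. The line difference of Notum, -1.61 (SE 0.65, adjusted p = 0.319), likewise passed only without a thyroid tissue. It ranged from -2.023 to -1.198 with 1 library left out.

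Across both lines, 7 of the 10 genes were higher in both mThy16 libraries than in both mThy14 libraries (Lgr5, Lgr6, Znrf3, Axin2, Notum, Tcf7 and Lef1), and Lgr4 was lower. The background is wide: 55.5% of the 14703 genes tested did not overlap between the lines, 26.4% of them higher in mThy16 and 29.1% lower. In the limma fit 1 of the 10 genes, Lgr5, passed the threshold, where 1.97% of all genes did. The median difference, mThy14 minus mThy16, was -1.05 over the 10 genes and 0.04 over all genes tested. The lines also differed in other markers. Foxe1, a thyroid transcription factor, was higher in mThy14 by 2.22 (SE 0.41, adjusted p = 0.0459). The summed thyroid genes were 175048 and 107373 in early and late mThy14 against 27306 and 22118 in mThy16, and 4 proliferation genes summed to 1996 and 988 in mThy14 against 3575 and 3926 in mThy16. Their part in the line difference of the Wnt genes was not tested.

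Other targets and ligands of the pathway were read from lists of 93 genes in the table, of which 87 passed the filter on low values. Between lines 5 were lower in mThy14 and 0 were higher, where over all 14703 genes 229 were lower and 61 higher. Wnt7b, a ligand, stood at 14.1 (early) and 48.9 (late) normalized counts in mThy14 and at 2644 and 3042 in mThy16, against 20.7 and 13.8 in thyroid tissue and 128 and 68.8 in lung (line difference -6.69, limma adjusted p = 0.00517). The mThy16 libraries stood above all others. Wnt16, another ligand, had 0 in both mThy14 libraries and 76.3 and 126.3 in mThy16 (adjusted p = 0.0447). The targets Ccnd1, which drives the cell cycle, Mmp7, a secreted protease, and Prom1 had adjusted p of 0.0174, 0.0187 and 0.0393. Mmp7 and Wnt16 passed the filter on low values only through the mThy16 libraries. Their tests, and their part in the 5 lower genes, therefore add no support to a line difference. In mThy14 Ccnd1 reached 1373 and 2060 normalized counts and in mThy16 it reached 10771 and 12018, with 23.4% of its exon length shared with a gene on the opposite strand.

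Mmp7 was listed at 0 in both mThy14 libraries and at 168 and 143 in mThy16, and Prom1 stood at 417 and 47.9 in mThy14 and at 2188 and 2486 in mThy16. Both genes were therefore high in mThy16 at each passage. With any one TFCO library left out, none of these 5 other Wnt genes passed the threshold. Wnt7b was called with either lung tissue left out, and the other 4 were not.

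Sp5, a transcription factor and close Wnt target, stood at 36.5 (early) and 60.4 (late) normalized counts in mThy14 and at 1846 and 1432 in mThy16, against 6.53 and 0 in thyroid tissue and 60.3 and 23.6 in lung. The mThy16 libraries were the highest, 50.5-fold above mThy14 at early and 23.7-fold at late passage, but the fit did not pass the threshold (-5.08, SE 1.10, limma adjusted p = 0.0733). It passed with voom (0.0473), with a pseudocount of 10 (0.0160) and with only the groups compared (0.0310). With 1 library left out it passed only when that was a thyroid tissue, and the difference ranged from -5.62 to -4.545. Ctnnb1, which encodes beta-catenin, did not pass the threshold between lines (-0.40, SE 0.53), with 18890 and 23533 in mThy14 and 27029 and 28717 in mThy16. Rspo3, the ligand supplied in the medium, was at 7.03 to 8.94 normalized counts in every TFCO library and at 43.5 and 36.9 in thyroid tissue.

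**Figure D3:**
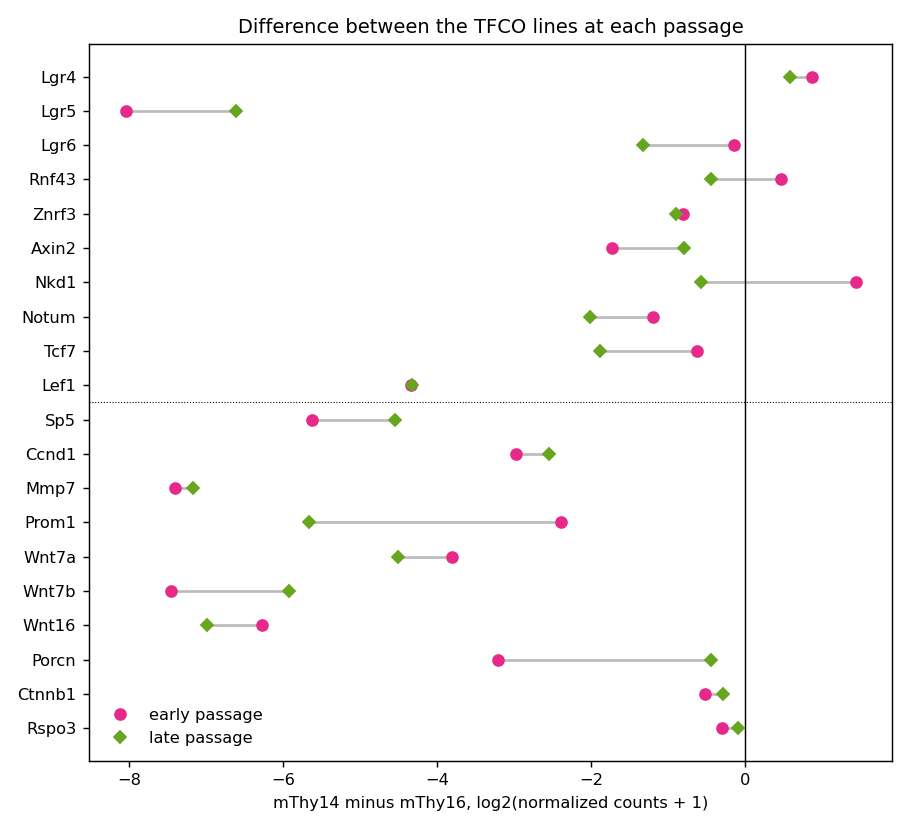
Difference mThy14 minus mThy16 on log2(normalized counts + 1) at early passage (circles) and late passage (diamonds), with the 10 genes above the dotted line and other Wnt genes below it. Lgr5, Lef1, Sp5, Mmp7, Wnt7b and Wnt16 lie far to the left at both passages, and Nkd1 and Rnf43 change side.

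Sequence is shown around the start of 3 Wnt targets that were higher in both mThy16 libraries than in both mThy14 libraries. The windows from 250 bases before to 50 after the start were read from RefSeq for Sp5, Lef1 and Axin2 (GRCm38.p6). Matches to the TCF/LEF letters CTTTGAT, or to the looser CTTTGNA with any base at N, on either strand, are in capitals. Sp5 holds CTTTGAT, the Lef1 window holds CTTTGCA, a match to the looser form only, and Axin2 holds neither. The windows are chr2:70474673-70474972, chr3:131110047-131110346 and chr11:108920099-108920398, all on the plus strand.
Sp5: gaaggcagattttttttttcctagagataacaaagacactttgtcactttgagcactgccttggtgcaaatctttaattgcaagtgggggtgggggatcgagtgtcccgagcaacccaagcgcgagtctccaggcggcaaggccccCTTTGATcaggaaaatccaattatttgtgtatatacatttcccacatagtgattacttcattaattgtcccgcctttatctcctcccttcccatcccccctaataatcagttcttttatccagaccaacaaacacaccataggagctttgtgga
Lef1: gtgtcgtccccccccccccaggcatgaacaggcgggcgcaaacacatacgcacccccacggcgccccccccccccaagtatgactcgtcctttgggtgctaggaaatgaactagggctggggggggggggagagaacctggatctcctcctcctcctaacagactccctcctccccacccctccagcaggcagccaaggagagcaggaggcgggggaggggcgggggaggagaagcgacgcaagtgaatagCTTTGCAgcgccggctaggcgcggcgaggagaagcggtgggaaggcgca
Axin2: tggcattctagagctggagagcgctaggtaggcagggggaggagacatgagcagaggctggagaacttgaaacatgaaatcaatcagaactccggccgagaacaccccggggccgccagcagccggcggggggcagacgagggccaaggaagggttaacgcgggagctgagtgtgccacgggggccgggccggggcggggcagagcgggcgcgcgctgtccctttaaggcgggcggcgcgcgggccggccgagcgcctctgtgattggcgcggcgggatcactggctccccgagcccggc
Of 32851 windows of that length, 3.73% hold CTTTGAT and 18.1% hold CTTTGNA. The 10 genes have 12 windows for 7 genes in the table. None of these windows holds CTTTGAT and 3 hold CTTTGNA, all of Lef1. The Lef1 window shown overlaps another of these, and both hold the same CTTTGCA, so that site is counted more than once. A match is a description of letters only.

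No gene passed the threshold between passages. In limma 0 of 14703 genes passed the threshold between late and early TFCOs, or 0%, with 166 at an unadjusted p under 0.05, and voom called 0 as well with 84 at that level. Of the 10 genes 0 passed, and 1 had an unadjusted p under 0.05, Nkd1 (-1.21, SE 0.52, adjusted p = 1). Its fall from 642 to 137 normalized counts took place in mThy14, whereas mThy16 had 237 and 206. The test of whether the passage change differed between the lines called 0 genes, or 0%. In limma 305 genes had an unadjusted p under 0.05 there (111 with voom, which also called 0), 1 of the 10 among them. Each TFCO library was its own level in this test, so its spread came from the thyroid and lung tissues only. It therefore cannot show that the lines changed alike. With the line as a replicate block, 0 of the 10 genes and 0 of all genes passed, with 224 genes at an unadjusted p under 0.05.

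Between TFCOs and thyroid tissue, limma called 3.65% of genes, 88 higher and 448 lower, and 2 of the 10 genes. Libraries did not overlap for 34.5% of all genes and for 3 of the 10, Axin2 and Notum higher in TFCOs and Nkd1 lower. The median difference was 0.09 over the 10 genes and 0.05 over all genes. Of the 87 other Wnt genes 2 were higher and 4 lower. Porcn, which attaches the lipid to Wnt ligands, stood at 2024 (early) and 9220 (late) normalized counts in mThy14, at 18728 and 12514 in mThy16, and at 628 and 194 in thyroid tissue (4.54, SE 0.73, adjusted p = 0.0221), and Myc rose by 2.52 (adjusted p = 0.0494). Wnt4, a ligand, was lower by -3.61 (adjusted p = 0.0211), with 163 and 399 in mThy14, 91.1 and 83.8 in mThy16 and 1621 and 2085 in thyroid tissue. The secreted inhibitors Dkk2 and Sfrp5 and the ligand-cleaving protease Trabd2b were also lower, by -4.91, -4.62 and -3.60 (adjusted p = 0.0341, 0.0383 and 0.0157). All 6 calls were lost without thyroid tissue 2 (adjusted p from 0.0552 to 0.105) and without either lung tissue (0.0631 to 0.141), and without late mThy14 Porcn, Myc and Sfrp5 were lost too, without early mThy14 Wnt4 and Dkk2, and without early mThy16 Myc. Of 14 tested inhibitors 12 had a negative difference, 3 of them past the threshold. Over the 87 genes of all lists 27 had a negative difference, and the share over all genes tested was not counted. Fibroblast genes were also lower in TFCOs, and the part of fibroblasts in these differences was not tested.

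The genes with the highest TFCO mean in the other lists did not differ past the threshold between TFCOs and thyroid tissue. Lrp5, a Wnt co-receptor, had 3035 to 12839 normalized counts in TFCOs and 2771 and 1651 in thyroid tissue (1.40, SE 0.56, limma adjusted p = 0.241). Bcl9, a nuclear partner of beta-catenin, had 1875 to 4558 against 2366 and 627 (adjusted p = 0.308). Kremen1, a co-receptor of Dkk inhibitors, had 349 to 778 against 630 and 924 (adjusted p = 0.592). Rspo1 led the R-spondin genes, with 2.08 to 41.4 normalized counts in TFCOs. Ndp, encoding the Frizzled ligand Norrin, had a TFCO mean of 2.06 and was left out by the filter.

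**Figure D4:**
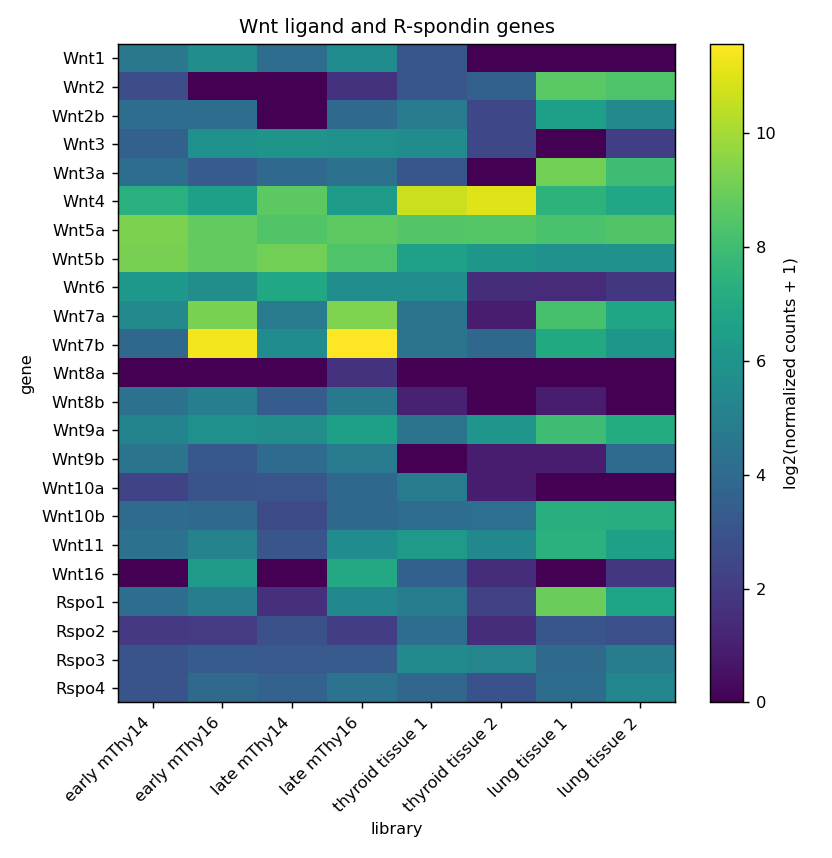
Heat map of log2(normalized counts + 1) of Wnt ligand and R-spondin genes in the 8 libraries. Wnt7b and Wnt7a are high in both mThy16 libraries, Wnt4 in the thyroid tissues, and Wnt2 and Wnt3a in the lung tissues.

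Between TFCOs and lung 23.4% of genes passed the threshold in limma, and 2 of the 10 genes did, Lgr4 higher and Nkd1 lower. Libraries did not overlap for 67.7% of all genes and for 5 of the 10. Among the other Wnt genes 18 were higher in TFCOs and 10 lower. Sox9, a transcription factor, had 3917 to 9208 normalized counts in TFCOs and 10.1 and 7.41 in lung (9.25, adjusted p = 0.000217), and Wnt2, a ligand of lung mesenchyme, had at most 5.62 in TFCOs and 384 and 334 in lung (-7.38, adjusted p = 0.00324). The Wnt2 call was lost without lung tissue 1 (0.0636) or lung tissue 2 (0.0667). Between thyroid and lung tissue 6.05% of genes passed, and 1 of the 10, Lgr4. Within the set of thyroid tissue 2 alone, the Lgr4 difference was 3.90. The Lgr5 difference there was -3.47, with 0 reads in that tissue and 12 and 15 reads in lung. That set holds 1 thyroid library, so only the sizes of these differences are given. The other Wnt genes gave 6 higher and 3 lower, with Sostdc1 at 495 and 270 in thyroid and 0 and 0.674 in lung (adjusted p = 0.00453). The comparisons share their tissue libraries and are not independent.

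By Euclidean distance over 8 libraries, after each gene was centred on its mean, the genes nearest to Axin2 were Agrn (0.799), Cpd (0.988), Dtna (1.01), Plce1 (1.03) and Acsl4 (1.09). Agrn, for example, had 1848 and 2840 normalized counts in mThy14 and 6024 and 6196 in mThy16. Among the 10 genes Lgr6 and Tcf7 lay closest (0.895), and the nearest to Axin2 was Tcf7 (2.61). In the set of the TFCOs and thyroid tissue 1 alone, the nearest genes to Axin2 shared 1 of 5 with this list, Plce1.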

How the data were processed

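RNA of 8 mouse libraries was analysed. Normalized counts were deposited by the authors as a single table, a signal in which each library's reads on a gene were scaled by a size factor, for which their methods name DESeq2. The methods describe a stranded polyA kit and the labels an adapted CEL-Seq protocol. The submitters' processing notes name BWA 0.6.2-r126 with hg38 and mm10. All values were whole multiples of one step per library (tolerance 0.1 reads), which gave 9755081 to 16904865 reads per library. Intervals and the floor of 3 reads cover counting error only.

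Tests used limma 3.58.1 (R 4.3.3) on log2(normalized counts + 1), fitted with the prior variance as a trend and adjusted after Benjamini and Hochberg (threshold 0.05). Of 16119 genes, 14703 were tested, those with 10 normalized counts or above in 2 libraries. All 10 members passed. Passages of a line were averaged for comparisons of TFCOs with a tissue. The p-values measure the spread between these samples, and since exact permutation of 2 against 2 libraries gives no p below 0.333, it was not used. Lines pair the early and late libraries, as their names in the titles show (r = 0.477 between the line differences at early and late passage, across genes).

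The 10 genes and the Wnt and marker lists were chosen with earlier results of these data known. Named were the 10 genes and, of the other Wnt genes, up to 5 higher and 5 lower past the threshold per comparison, the one with the highest TFCO mean in each list, Rspo3, Ctnnb1 and Sp5, and the 5 genes nearest to Axin2. Agrn values and those of Sostdc1 are examples of these. Positions are from GENCODE M21 (GRCm38), matched by 15883 symbols. Planned fits of count models were left out since the values are not counts as deposited, and 2 alternatives were chosen after seeing the data, voom on whole reads and fits within one library set. The fits were also run on simulated reads, drawn independently for each library and with no effect of library set. That run does not bear on such effects or on passages of one line being alike.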

Additional observations from a re-analysis of the deposited data

How the results depend on the processing

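No difference past the threshold in either fit changed its sign under the alternatives run, over 1712 values of single genes, and 46 of the differences past it in neither fit did, Rnf43 between TFCOs and thyroid among them. Between TFCOs and thyroid tissue, 1 of the 10 genes was called with no filter and 0 with no mean-variance trend, with only the groups compared in the fit, with voom or within the set of thyroid tissue 1. All genes called there numbered 124 with only the groups compared, 1322 with the TFCO libraries separate, 232 with voom and 0 within the set. Scaling to the same total called 1 of the 10. Leaving out one library gave 0 to 3 of the 10 genes and 153 to 4085 of all genes. Between TFCOs and lung, only the groups compared gave 4 of the 10 and 6979 of all genes, separate TFCO libraries 6625, and leaving out a library 1 to 4 and 248 to 6986. Between thyroid and lung, only the groups compared gave 277, the set of thyroid tissue 2 alone 252, and leaving out a library 0 to 2 of the 10 and 58 to 4311. Between lines, quantile normalization gave 2 and 176, no trend 2 and 42, voom 0 and 58, and leaving out a library 0 to 3 and 0 to 962. Between passages, leaving out a library gave 0 to 2 genes. The genes nearest to Axin2 shared 1 of 5 in the set of thyroid tissue 1. Quantile normalization moved the median of all genes to 0.17 for TFCOs against thyroid, 0.32 against lung and 0.14 for thyroid against lung, and no filter to 0.13 for TFCOs against lung, where the main medians were 0.05, 0.05 and 0.03, and scaling to the same total moved it to -0.13 between lines. The replicate block by line changed no call between passages. Tissue numbers share only a number (r = -0.07), and with that block 1 of the 10 was called between thyroid and lung. The causes were not tested. Planned DESeq2 and edgeR fits were not run. Depth limits Lgr5 and Lef1 in mThy14, at 0 or 1 read. A lone library was assumed to vary like the other groups.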
